A study of Mus musculus with 300 samples.

Results

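The genes of oxidative phosphorylation were described across single cells of the mouse thymus at embryonic day E15.5 that the labels name as early thymic progenitors (ETPs), the least mature T-lineage cells of the thymus. Members were chosen by symbol: matrix rows whose name begins with a subunit prefix of complex I (Ndufa, Ndufb, Ndufc, Ndufs, Ndufv), II (Sdh), III (Uqcr), IV (Cox4 to Cox8) or V (Atp5), and the mitochondrial protein-coding genes mt-Nd, mt-Cytb, mt-Co and mt-Atp, with pseudogene rows ending in -ps left out. The rule found 95 genes encoded in the nucleus and 13 in the mitochondrial genome, of 13737 features in all. Of the nuclear members, 79 encode subunits, 13 are assembly factors or related genes that share the prefix (Ndufaf, Sdhaf, Atp5s) and 3 have a subunit-like name but are annotated as processed pseudogenes, which the rule kept because their names do not end in -ps (Ndufa11b, Ndufb4c, Cox6c2). All cells came from 5x polychromILC mice, a strain with several fluorescent reporter alleles, and the labels name no treatment, no wild-type control and no second group. The cells analysed carry 4 labelled mouse ids: 67 cells are labelled 1A, 69 are 1B, 64 are 2A and 61 are 2B. The sources used here do not say if an id is 1 embryo or a pool, so the spread between ids may be partly technical.

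Oxidative phosphorylation passes electrons from NADH and succinate through complexes I to IV to oxygen, pumps protons across the inner mitochondrial membrane and lets them return through complex V, the ATP synthase. Most subunits are encoded in the nucleus and imported, whereas a small set of hydrophobic core subunits is transcribed from mitochondrial DNA, so that complexes I, III, IV and V are built from both genomes and complex II from the nucleus alone. In developing T cells, proliferating stages are known for high demand on both glycolysis and mitochondrial respiration.

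Markers of the label were detected in most cells, some of them less widely than markers of other types. Ptprc, the pan-leukocyte gene, and the receptor gene Notch1 were detected in 100% of cells, Lck in 98.1%, Cd34 in 94.6%, Cd44 in 93.9%, Kit in 90.8%, Gata3 in 82.8% and Tcf7 in 80.8%. Of the 12 markers, Hes1 (56.7 to 83.6% by mouse), Il7r (65.1%), Flt3 (61.3%) and Ccr9 (57.9%) were the least widely detected, whereas the B-cell factor Pax5 was detected in 1.15%. Transcripts of other types were also present: the macrophage receptor gene Csf1r was detected in 67.4% of cells, the mast-cell protease gene Cpa3 in 76.6% and the plasmacytoid dendritic gene Siglech in 54.8%. Depth is known only as the number of detected genes, with a median of 7782 per cell (5073 to 10337). The deposited values carry a batch correction by the authors. Exact shared values divide the cells into 4 sets that were corrected alike: each of 1A and 1B lies mostly in a set of its own, with 61 and 64 cells, while 2A and 2B divide between the remaining sets, which hold 35 cells from 2A beside 36 from 2B, and 26 beside 25. If the sets follow the animals, 2A and 2B are not independent, and the p-values below are too small.

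Nuclear subunit genes are transcribed from separate promoters on many chromosomes. To show what members that vary together share in sequence, promoter windows of 300 bases around the RefSeq transcription start, most of it upstream (build GRCm38.p6), were searched on both strands for 3 motifs known from this gene class. These were the nuclear respiratory factor 1 (NRF1) palindrome (the capitals of the Uqcrc1 window), the core CCGGAAG bound by the ETS family, which includes GABPA, and the YY1 element AAGATGGCG. The last 3 letters of the ETS core are the first 3 of the YY1 element, so both matches can overlap. Of the 95 nuclear members, 75 had a promoter in the table. The NRF1 letters were present in 7 of 75 genes (9.33%) against 1.07% of 27025 genes in the table, the ETS letters in 21 (28%) against 9.93%, and the YY1 letters in 8 (10.7%) against 1.64%. At least 1 of the 3 motifs was present in 32 members (42.7%) and in 12.1% of all genes. The 27025 genes include genes that are not among the 13737 features of the matrix, whereas every member is. Shares over the genes of the matrix alone were not taken, so the part of expression in these differences was not tested. The windows printed below were chosen because together they hold each motif: those of Atp5j and Cox8a, which were also associated with the cycling score below, and of Cox6a1 and Uqcrc1, which hold the NRF1 palindrome. They are given 5′ to 3′ on the strand of the gene, with the motif letters of either strand in capitals.
Atp5j (chr16:84834927-84835226, minus strand; YY1, then ETS): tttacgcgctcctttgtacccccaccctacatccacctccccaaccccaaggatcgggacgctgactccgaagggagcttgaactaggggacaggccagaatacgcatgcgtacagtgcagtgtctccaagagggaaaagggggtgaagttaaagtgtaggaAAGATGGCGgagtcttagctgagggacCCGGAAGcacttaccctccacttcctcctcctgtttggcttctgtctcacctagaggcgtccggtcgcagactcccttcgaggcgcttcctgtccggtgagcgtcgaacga
Cox8a (chr19:7217567-7217866, minus strand; ETS on the opposite strand in both places): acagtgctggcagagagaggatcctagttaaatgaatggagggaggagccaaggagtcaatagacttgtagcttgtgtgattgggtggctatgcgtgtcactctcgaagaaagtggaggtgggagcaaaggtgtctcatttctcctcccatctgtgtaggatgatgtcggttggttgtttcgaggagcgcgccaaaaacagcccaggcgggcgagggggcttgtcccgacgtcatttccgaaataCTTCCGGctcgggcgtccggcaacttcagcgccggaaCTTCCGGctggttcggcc
Cox6a1 (chr5:115348909-115349208, minus strand; NRF1, then ETS on the opposite strand): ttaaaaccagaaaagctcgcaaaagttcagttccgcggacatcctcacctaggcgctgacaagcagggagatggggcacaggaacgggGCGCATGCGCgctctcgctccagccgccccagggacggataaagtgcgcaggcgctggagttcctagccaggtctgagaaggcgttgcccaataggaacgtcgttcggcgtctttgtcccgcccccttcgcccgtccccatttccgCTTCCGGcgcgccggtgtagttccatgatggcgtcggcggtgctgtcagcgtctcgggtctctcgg
Uqcrc1 (chr9:108936398-108936697, plus strand; NRF1): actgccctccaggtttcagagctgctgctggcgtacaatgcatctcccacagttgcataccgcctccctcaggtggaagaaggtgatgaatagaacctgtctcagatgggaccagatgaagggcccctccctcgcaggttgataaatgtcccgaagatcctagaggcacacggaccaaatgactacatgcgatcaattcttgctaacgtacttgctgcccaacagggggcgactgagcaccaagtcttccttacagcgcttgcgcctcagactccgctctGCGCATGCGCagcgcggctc
A match is a description of the letters in these windows. A gene with several annotated starts counted once, with a match in any of its windows, for members and for all genes alike. Atp5j has a further window (chr16:84835576-84835875), which holds none of the 3 motifs. Of the 7 nuclear members called with the cycling score below, 6 had a promoter entry (not Atp5f1), and of these 0 held the NRF1 letters, 2 the ETS letters (Atp5j, Cox8a) and 1 the YY1 letters (Atp5j).

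Mitochondrial transcripts were the more abundant of both sets, and single mitochondrial genes had the lower median SD over cells on the log2 scale. The 13 mitochondrial genes took a median of 3.21% of the linear signal of a cell (1.04 to 7.0%), and the 95 nuclear members took 1.52% (0.616 to 2.60%). By mouse, the mitochondrial medians were 3.01% in 1A, 2.96% in 1B, 3.32% in 2A and 3.49% in 2B, and the nuclear medians 1.48%, 1.46%, 1.47% and 1.64%. Mouse 2B was thus highest for both genomes, and the ranges over cells overlapped widely between all 4 mice. Of single members, 66 of 95 nuclear and 9 of 13 mitochondrial genes had their highest mean log2 level in mouse 2B, as did 41.1% of all genes in the matrix. In mouse 2B more genes were detected per cell (median 8243, against 7518 to 7787 in the other mice), and the part of depth in these levels was not tested. The SD over cells had a median of 1.43 log2 units over nuclear members and 0.780 over mitochondrial members. It was 1.35 over the 79 nuclear subunits and 2.68 over the 13 assembly factors. Abundant nuclear genes such as Cox4i1 (0.637) and Atp5b (0.764) were as even as mitochondrial genes. The part of level and detection in this difference was not tested. All 13 mitochondrial genes were detected in at least 90% of cells, as were 78 of the 95 nuclear members, and 4 nuclear members were detected in fewer than 50% (Cox6a2, Sdhaf3, Atp5s and Ndufaf5).

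Because the deposited values were not scaled to gene length, levels of different genes were compared only per kilobase of the principal transcript (log2 of the mean linear signal per kilobase, mean ± SD of 4 mice). On this scale the mitochondrial members had a median of 11.30 and the nuclear members of 6.94. Only 20 nuclear members lay above the lowest mitochondrial gene, and 0 above the mitochondrial median. Among mitochondrial genes, those of complex I were the lowest. mt-Co3 (13.71 ± 0.17) and mt-Co1 (12.72 ± 0.10), core subunits of cytochrome c oxidase (complex IV), were highest. The ATP synthase genes mt-Atp8 (12.54 ± 0.11) and mt-Atp6 (12.38 ± 0.22) and the complex III gene mt-Cytb (12.38 ± 0.11) followed and were not separated beyond their spread. mt-Co2 stood at 11.74 ± 0.17. Of the complex I genes, mt-Nd1 was highest (11.30 ± 0.19), and mt-Nd4l (10.05 ± 0.15), mt-Nd4 (9.48 ± 0.14), mt-Nd3 (9.36 ± 0.44), mt-Nd5 (9.26 ± 0.05) and mt-Nd2 (8.75 ± 0.19) lay below it. mt-Nd6, the only mitochondrial member on the minus strand, was lowest at 7.68 ± 0.16. The libraries were oligo-dT-primed, and the part of capture in the order of these genes was not tested.

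**Figure D1:**
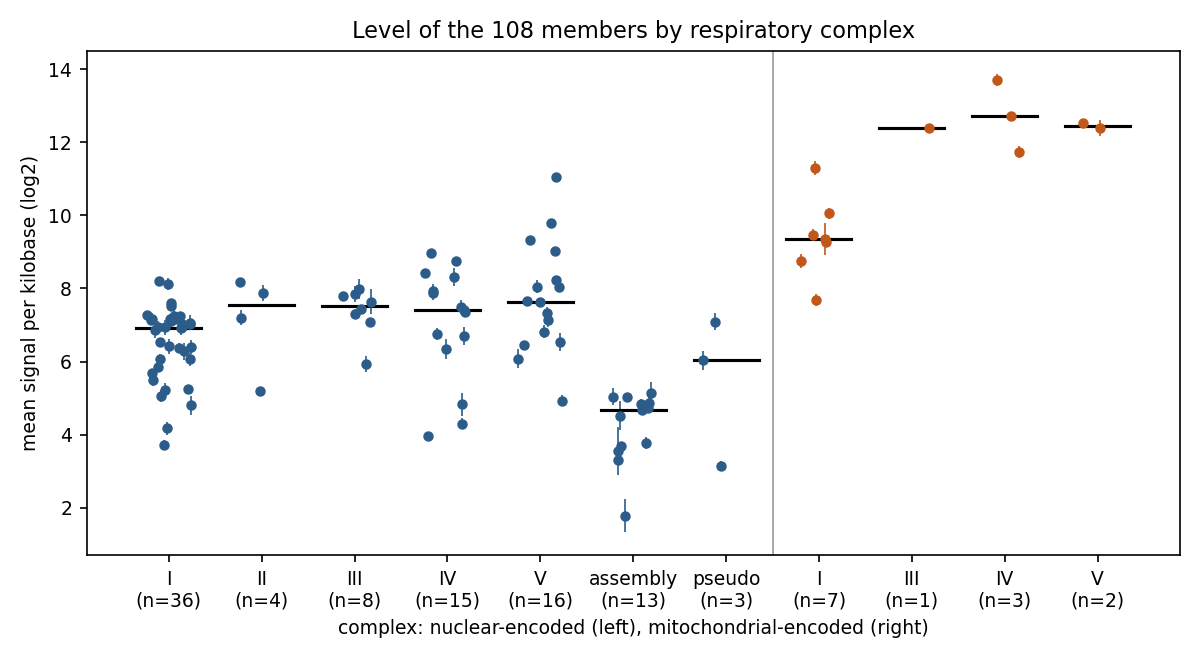
Mean signal per kilobase on the log2 scale for each member, grouped by complex and by genome, with bars for the SD of 4 mice and lines for group medians; "pseudo" marks the 3 processed pseudogenes that the rule kept. The mitochondrial genes lie between 7.68 and 13.71, 7 of the 13 above all nuclear genes, and the assembly factors have the lowest median.

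Gene boundaries limit how far some mitochondrial genes can be separated. On chromosome M, mt-Atp8 (7766 to 7969) overlaps mt-Atp6 (7927 to 8607), mt-Nd4l (9877 to 10173) overlaps mt-Nd4 (10167 to 11544), and mt-Nd6 (13552 to 14070) overlaps mt-Nd5 (11742 to 13565) on the other strand. mt-Atp8 and mt-Atp6 lie on the same strand, as do mt-Nd4l and mt-Nd4, so strand cannot assign reads inside these overlaps. Reads in the overlap of mt-Nd6 with mt-Nd5 cannot be assigned without strand, and the sources used here do not say if counting used strand.

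Nuclear subunits of the 5 complexes had medians between 6.92 and 7.64, with ranges of unequal width. The median per kilobase was 6.92 for the 36 subunits of complex I (3.72 to 8.21), 7.54 for the 4 of complex II (5.18 to 8.17), 7.53 for the 8 of complex III (5.93 to 7.99), 7.42 for the 15 of complex IV (3.95 to 8.97) and 7.64 for the 16 of complex V (4.93 to 11.06). The top nuclear genes were the catalytic and stalk subunits of ATP synthase: Atp5b, the catalytic beta subunit, at 11.06 ± 0.03, and Atp5a1, the alpha subunit, at 9.80. The 13 assembly factors had a median of 4.67, from Sdhaf3 at 1.78 ± 0.46 to Ndufaf1 at 5.13, and were detected in a median of 65.5% of cells against 99.2% for the 79 subunits. Assembly factors thus lay below the median of each subunit group.

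Where a subunit exists in tissue isoforms, the broadly expressed form was the higher. Cox4i1 reached 8.97 ± 0.09 per kilobase and Cox4i2, known from lung and low oxygen, 4.30 ± 0.15. Cox6a1 reached 7.87 ± 0.20 and Cox6a2, the heart and muscle form, 4.83 ± 0.32, with Cox6a2 detected in 24.1% of cells against 100% for Cox6a1. Cox6b1 reached 7.94 ± 0.18 and Cox6b2, the testis form, 3.95 ± 0.12. The gap exceeded the spread of mice in all 3 pairs. Cox6a2 was uneven between cells rather than low in all: its log2 value was 0.06 in the median cell and 10.06 in the highest. Cox7a2, a structural subunit, stood at 6.71 ± 0.25 and Cox7a2l, which joins complexes III and IV, at 7.34 ± 0.08. The 3 genes of the membrane ring subunit c of ATP synthase, which encode the same mature protein, stood at 7.62 ± 0.13 (Atp5g3), 6.46 ± 0.08 (Atp5g2) and 4.93 ± 0.14 (Atp5g1). The order of Atp5g1 rests on its annotated principal transcript of 4715 bases. On the deposited log2 scale, without length, it was level with Atp5g3 (6.84 ± 0.11 and 6.85 ± 0.12). Ndufa4, now counted with complex IV, reached 8.30 ± 0.24. Cox7a1, Cox8b, Cox8c and Ndufa4l2 were not analysed here.

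Nuclear and mitochondrial members varied together from cell to cell. For each cell, the values of each gene were scaled inside its correction set and averaged over the 95 nuclear and the 13 mitochondrial members. Across the cells of a mouse, the Spearman correlation between both averages, given the number of detected genes and the set, was 0.525 in 1A, 0.499 in 1B, 0.591 in 2A and 0.504 in 2B (mean 0.531 ± 0.042, SD of 4 mice with 61 to 69 cells each). It was positive in all 4 mice, and within single plates with at least 20 cells of a mouse it ranged from 0.456 (2B on plate JW7) to 0.589 (2B on plate JW8). These are descriptions: the points share libraries, depth and normalization. Without the adjustment for detected genes the mean was 0.640. With the adjustment, the 2 percentages of linear signal correlated less and less evenly than the averages, with a mean of 0.335 ± 0.194. By mouse that correlation was 0.426 in 1A, 0.066 in 1B, 0.513 in 2A and 0.296 in 2B. Both averages followed the number of detected genes in 3 mice and not in 2B: the nuclear correlation was 0.512, 0.624, 0.484 and -0.120 in 1A, 1B, 2A and 2B, and the mitochondrial one 0.582, 0.610, 0.464 and -0.012. In 2B both plates gave lower values than the other mice, with 0.175 on JW7 and -0.414 on JW8 for the nuclear average.

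**Figure D2:**
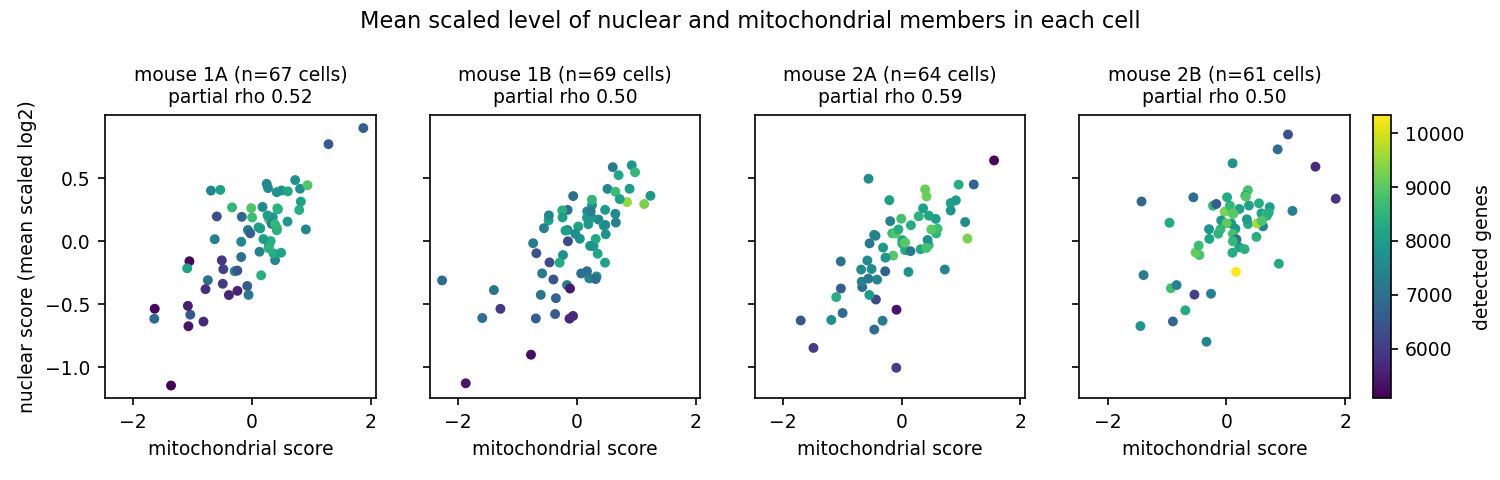
Mean scaled log2 level of the mitochondrial (x) and nuclear (y) members in each cell (61 to 69 a mouse), 1 panel per labelled mouse, coloured by the number of detected genes. Cells high in 1 average tend to be high in the other in every panel, with partial rank correlations of 0.525, 0.499, 0.591 and 0.504.

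Among nuclear subunits, complexes I, III, IV and V formed the tightest block. The mean correlation of group averages was 0.760 for I with V, 0.732 for I with IV, 0.693 for IV with V, 0.644 for III with IV, 0.637 for I with III and 0.600 for III with V. Complex II, succinate dehydrogenase, which also serves the citric acid cycle, was less tied to the others (0.389 to 0.442) and is the smallest group, with 4 genes. With the mitochondrial average, the values were 0.518 for complex V, 0.485 for I, 0.443 for IV, 0.421 for III and 0.285 for II. Assembly factors correlated at 0.335 with complex I, 0.275 with complex V and 0.217 with the mitochondrial genes; the part of their lower detection in these values was not tested.

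**Figure D3:**
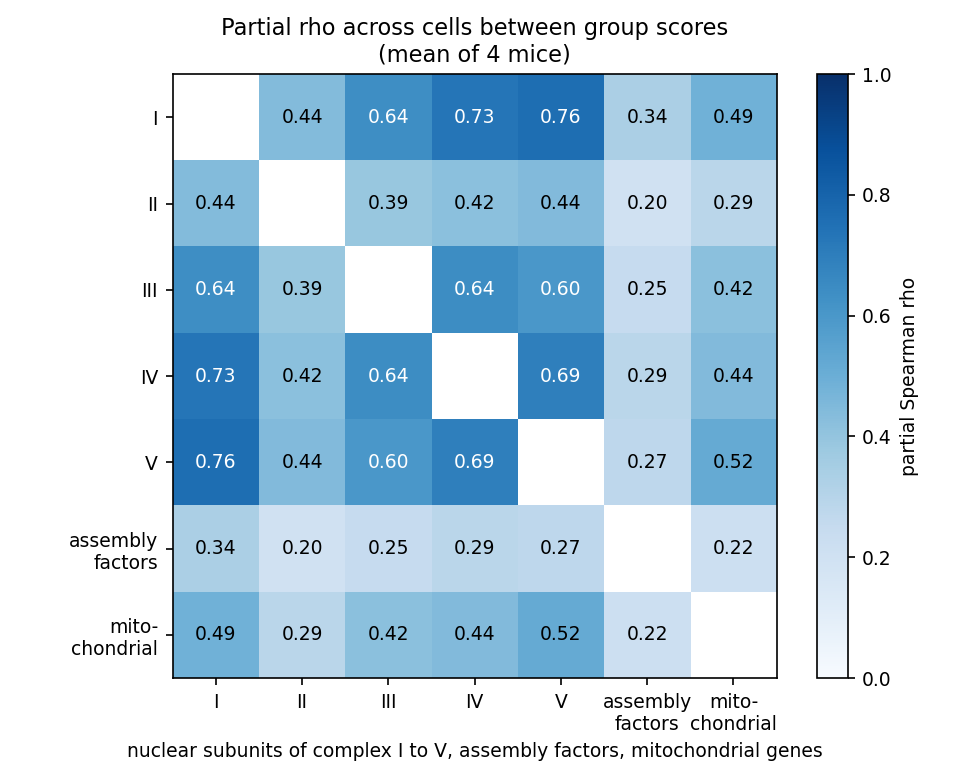
Partial Spearman correlation across cells between the averages of nuclear subunits of complexes I to V, assembly factors and mitochondrial genes, as the mean of 4 mice. Complexes I, III, IV and V correlate with each other at 0.600 to 0.760, and complex II and the assembly factors lie lower with every group.

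For single pairs of genes, the median correlation was 0.390 over 78 mitochondrial pairs, 0.101 over 4465 nuclear pairs and 0.132 over 1235 pairs of a nuclear with a mitochondrial gene. Nuclear pairs of the same complex had a median of 0.0895 (1347 pairs) and pairs of different complexes 0.106 (3118 pairs). Complex I holds 46 of the 95 nuclear members, assembly factors and pseudogenes included, and the complexes differ in level and detection. These medians therefore cannot show if sharing a complex matters. The nuclear pairs with the highest values were a gene and a processed pseudogene of like name, Cox6c with Cox6c2 (0.757) and Ndufb4 with Ndufb4c (0.599), between which reads may be shared. Among mitochondrial pairs, mt-Atp8 with mt-Cytb (0.714) and mt-Co3 with mt-Atp8 (0.696) were highest. mt-Co1, the catalytic subunit of complex IV and a highly abundant transcript, ranged from 0.056 with mt-Nd3, 0.092 with mt-Nd6 and 0.221 with mt-Co2 of its own complex to 0.458 with mt-Co3, 0.462 with mt-Atp8 and 0.467 with mt-Cytb. Of pairs across genomes, Ndufv2, a subunit of the NADH-oxidising arm of complex I, with mt-Nd3 was highest (0.418). The lowest were Sdhaf1 with mt-Nd2 (-0.168) and mt-Co1 with Atp5g1 (-0.141) and with Cox7a2 (-0.139). These are weak values at the extreme of 1235 pairs. A low value for a sparsely detected gene is no finding.

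Each gene was next set against 3 averages that describe the state of a cell: 20 progenitor genes (such as Kit, Cd34, Flt3 and Hhex), 46 cycling genes (22 of S phase such as Mcm2 and Pcna, 24 of G2 and M phase such as Mki67 and Top2a) and 24 genes of natural killer and innate lymphoid cells (such as Il2rb, Nkg7 and Zbtb16). The partial Spearman correlation (rho), given detected genes and set, was taken inside each mouse, and the 4 transformed values of a gene were tested against 0 with limma over all genes detected in at least 10% of cells. Adjusted p is Benjamini-Hochberg over all genes, and a gene was called at adjusted p under 0.05. All 95 nuclear and 13 mitochondrial members passed this filter. limma drew the spread of each gene wholly or almost wholly to that of all genes, so that a gene's own spread among mice hardly enters its p and is given beside it as an SD.

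With the cycling score, 7 of 95 nuclear members (7.37%) and 2 of 13 mitochondrial members (15.4%) were called upward, against 5.18% of 12386 genes, and 0 were called downward, against 0.735%. The nuclear share thus lay near the background. At unadjusted p under 0.05 stood 16 nuclear and 7 mitochondrial members. All 13 mitochondrial rhos were positive, with a median of 0.144, against a median of 0.061 over the nuclear members (77 of 95 positive) and 0.013 over all genes (6872 of 12386 positive). The 13 mitochondrial genes vary together across cells, so their signs are not separate observations. Taken as percent of the linear signal of a cell, the mitochondrial set correlated with the cycling score at only 0.023 ± 0.058. The nuclear set stood at 0.058 ± 0.163 on that measure, with mixed sign between mice. By complex, the calls were 1 of 36 nuclear subunits of complex I, 0 of 4 of II, 1 of 8 of III, 2 of 15 of IV and 3 of 16 of V, and 0 of 13 assembly factors.

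The 2 mitochondrial calls were the cytochrome b of complex III and the proton-channel subunit of ATP synthase. The log2 value of mt-Cytb ran from 9.45 to 14 over cells (median 12.50), with mouse means of 12.34, 12.33, 12.49 and 12.56. Its association was taken inside each mouse, so the mouse means do not enter it. The rho was 0.267 in 1A, 0.315 in 1B, 0.101 in 2A and 0.319 in 2B (mean 0.252 ± 0.103, adjusted p = 0.0058). The level of mt-Cytb rose by 0.24 ± 0.10 log2 units per SD of the score. mt-Atp6 ran from 4.78 to 13.40 (median 11.71), with rhos of 0.154, 0.399, 0.10 and 0.243 (mean 0.227 ± 0.131, adjusted p = 0.0186) and a slope of 0.51 ± 0.12. Both were positive in 4 of 4 mice, with 2A the lowest. The mitochondrial genes next in order did not pass: mt-Nd3 (rho 0.185, adjusted p = 0.0878) and mt-Nd4l (0.183, adjusted p = 0.0927). At the other end stood mt-Co1 at 0.022, mt-Nd6 at 0.011 and mt-Co2 at 0.008, so that transcripts of 1 genome differed in their values, a difference that was not tested.

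Of the nuclear calls, 3 belong to ATP synthase. Atp5j encodes coupling factor 6 of the peripheral stalk, and 1 of its promoter windows is shown above. Its log2 values ran from 0.50 to 9.94 (median 7.60). Its rhos were 0.196 in 1A, 0.532 in 1B, 0.103 in 2A and 0.158 in 2B (mean 0.258 ± 0.194, adjusted p = 0.00447). Mouse 1B lay far above the others. Atp5b ran from 8.05 to 13.34 (median 11.99), with rhos of 0.266, 0.292, 0.198 and 0.167 (mean 0.232 ± 0.058, adjusted p = 0.0156), the most even among mice of the 9 members. Atp5f1, subunit b of the peripheral stalk, had 0.158, 0.503, 0.040 and 0.095 (mean 0.209 ± 0.208, adjusted p = 0.039), with 1B again far above the rest.

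In complex I the call was Ndufa5, a subunit of the peripheral arm, with log2 values from -0.37 to 7.20 (median 4.82, detected in 90.9% of cells) and rhos of 0.227, 0.426, 0.136 and 0.238 (mean 0.260 ± 0.122, adjusted p = 0.00386). Its slope was 0.71 ± 0.34 log2 units per SD of the score. The SD over cells of Ndufa5 was 1.76 log2 units, against 0.685 for mt-Cytb and 1.17 for mt-Atp6, so slopes in log2 units do not rank these genes. Both complex IV calls are nuclear subunits around the mitochondrial core: Cox8a had rhos of 0.337, 0.309, 0.112 and 0.088 (mean 0.214 ± 0.130, adjusted p = 0.0315) and Cox5b 0.163, 0.351, 0.046 and 0.255 (mean 0.206 ± 0.130, adjusted p = 0.0428). In complex III, the small subunit gene Uqcr10 was called with 0.182, 0.405, -0.070 and 0.273 (mean 0.203 ± 0.200, adjusted p = 0.0488), and was negative in mouse 2A. Thus 8 of the 9 called members were positive in all 4 mice, 7 of 9 were highest in mouse 1B and 7 of 9 lowest in 2A. Without mouse 1B, 0 members were called (14 at unadjusted p under 0.05), and without 1A 3 were called. With the 4 correction sets as units in place of mice, 5 members were called, all among the 9. The nuclear members with the lowest rhos were Cox6a2 (-0.119) and Cox7a2l (-0.110), and neither passed.

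**Figure D4:**
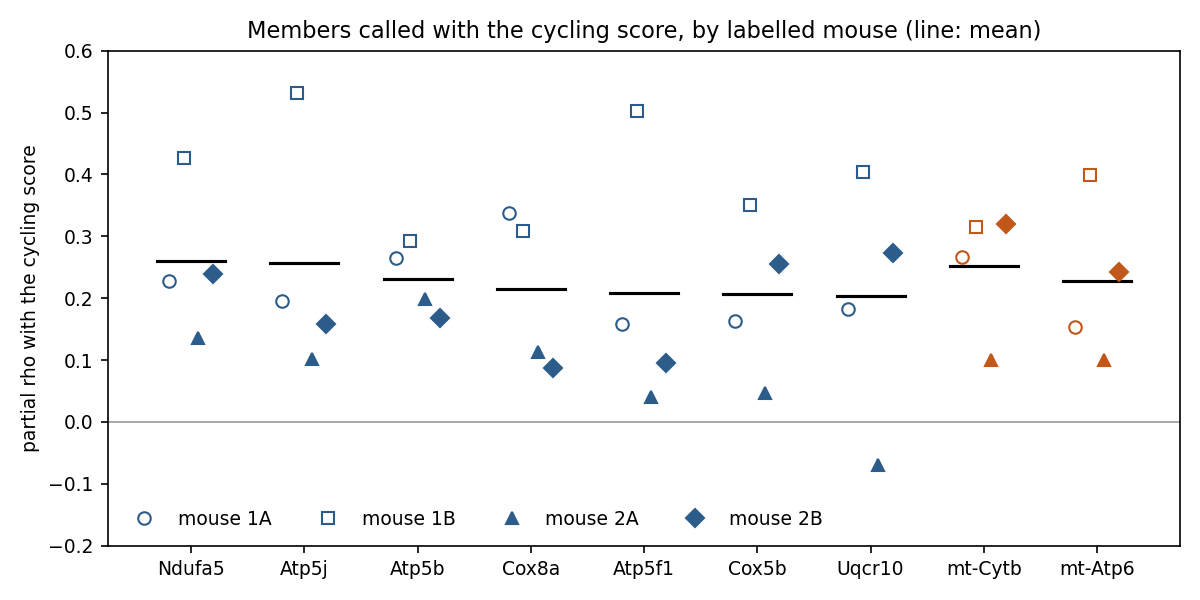
Partial rho with the cycling score in each labelled mouse for the 9 members called upward, nuclear in blue and mitochondrial in orange, with a line at the mean. Mouse 1B (open squares) is highest in 7 of the 9, and 1 value, Uqcr10 in mouse 2A, lies below 0.

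The cycling score itself followed depth, with a correlation with detected genes of 0.636 ± 0.124 given the set, so the adjustment bears on every call. Without it, 28 nuclear members rose and 2 fell, and 9 mitochondrial members rose, while 3897 genes of the whole table rose and 371 fell. The scores of the other cell types (myeloid, dendritic, mast and erythroid genes) ran at -0.182 ± 0.201 with the nuclear and -0.146 ± 0.158 with the mitochondrial average, positive in mouse 1B (0.122 and 0.087) and negative in the other 3. These lists held 23 of 24 and 13 of 16 genes in the matrix, with median detection of 31.8% and 30.7% of cells. With them as a further covariate, 5 nuclear and 1 mitochondrial members remained among the called 9.

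S phase and G2/M genes were then separated, a comparison chosen after the cycling results were seen. The nuclear average correlated at 0.276 ± 0.127 with the S list and 0.120 ± 0.127 with the G2M list, and the mitochondrial average at 0.137 ± 0.231 and 0.188 ± 0.072. The difference of both associations, tested per gene with limma, was called toward S phase in 3 of 95 nuclear members against 2.98% of 12386 genes, and toward G2/M in 0 against 1.99%. Of the 13 mitochondrial genes 0 were called in either direction, and 0 at unadjusted p under 0.05. The nuclear calls were Ndufaf4, a complex I assembly factor (back-transformed difference 0.337 ± 0.235, adjusted p = 0.00679), Cox7b of complex IV (0.320 ± 0.042, adjusted p = 0.0123) and Sdha, the flavoprotein of complex II (0.283 ± 0.118, adjusted p = 0.0386). Each was positive in 4 of 4 mice, with Cox7b at 0.330, 0.275, 0.373 and 0.301 the most even. Their share is close to that of all genes. Leaving out 1 mouse in turn, the call of Sdha was lost in 4 of 4 cases, of Cox7b in 3 and of Ndufaf4 in 1, and without 2B 0 members were called (7 at unadjusted p under 0.05).

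With the progenitor score, 0 of 95 nuclear and 0 of 13 mitochondrial members were called by limma, against 3.1% of 12412 genes upward and 0.87% downward. At unadjusted p under 0.05 stood 12 nuclear and 2 mitochondrial members. The highest rhos belonged to Ndufs3, a core subunit of complex I (0.028, 0.176, 0.223 and 0.412, mean 0.214 ± 0.158, adjusted p = 0.0541), and mt-Co1 (0.463, -0.002, 0.200 and 0.124, mean 0.204 ± 0.196, adjusted p = 0.0764). The lowest belonged to Ndufa11 (-0.186, adjusted p = 0.112) and Ndufa1 (-0.171, adjusted p = 0.15), both accessory subunits of complex I and negative in 4 of 4 mice. Medians were 0.028 over nuclear members, 0.069 over mitochondrial members and 0.029 over all genes. Complex V had the lowest median of the nuclear groups (-0.037, 6 of 16 positive), opposite in sign to its median with the cycling score (0.078, 15 of 16 positive).

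With the innate score, 0 members of either genome were called by limma, against 0.661% of 12409 genes upward and 0.0886% downward. At unadjusted p under 0.05 stood 8 nuclear and 0 mitochondrial members. Ndufs8, an iron-sulphur subunit of complex I, was the lowest, with rhos of -0.206, -0.217, -0.300 and -0.230 (mean -0.238 ± 0.042, adjusted p = 0.0975), negative in all 4 mice. Atp5e, the epsilon subunit of ATP synthase, was the highest, at 0.197, 0.218, 0.118 and 0.230 (mean 0.191 ± 0.051, adjusted p = 0.306). Both were even between mice, and neither passed the threshold. The averages varied between mice in sign: the nuclear one ran at -0.111, -0.289, 0.017 and 0.288 with the innate score and the mitochondrial one at -0.082, -0.090, 0.130 and 0.216. Mouse 2B held no cell rich in innate genes: its highest innate score was 0.842, against 1.85 in 1A, 3.33 in 1B and 2.42 in 2A. Every innate rho of 2B, also for single genes, thus ranks cells that are low in this score. In 1A the highest innate scores (1.19 to 1.85) belonged to its 5 cells of 1 correction set. The adjustment for set removes their contrast with the other cells of 1A, whose highest score was 1.02. The innate rhos of 1A thus also rank mostly cells low in this score. The part of these limits in the signs was not tested. With the cells of the first 8 wells in every set left out, where earlier results of these data placed cells rich in innate genes, the whole table held 1 call, so this score rests on few cells.

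**Figure D5:**
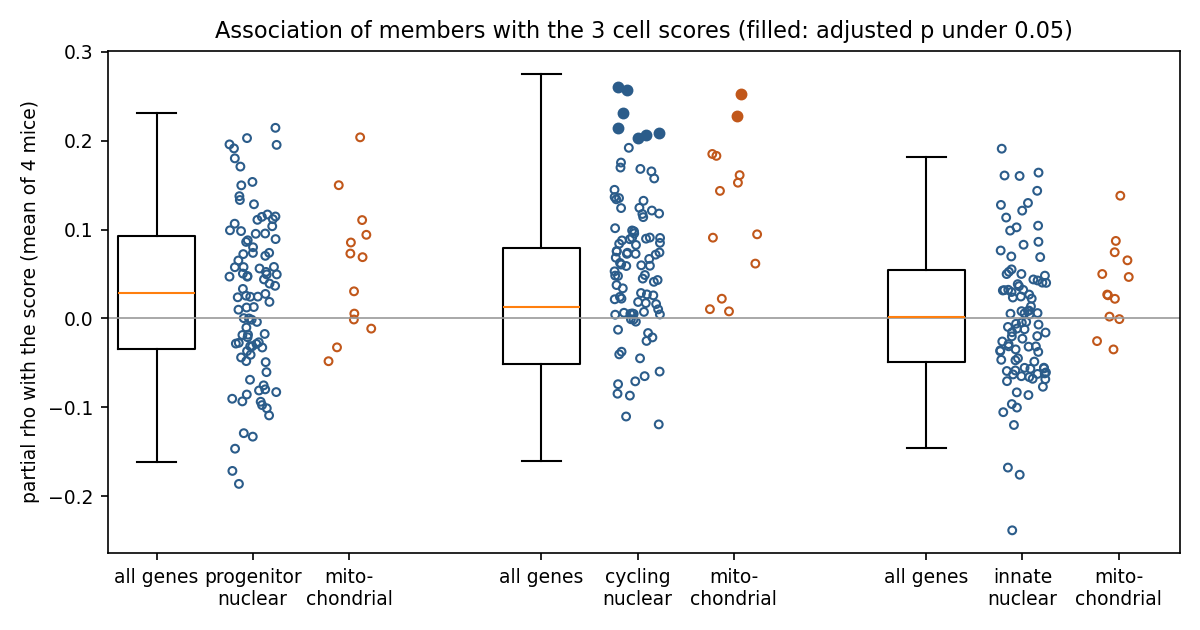
Mean partial rho of each nuclear (blue) and mitochondrial (orange) member with the progenitor, cycling and innate scores; filled points have an adjusted p under 0.05, and boxes show the median, quartiles and central 95% of all genes tested. Only the cycling score has filled points, and there all 13 mitochondrial genes lie above 0.

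Direct tests between scores gave few calls. For cycling minus progenitor, 3 of 95 nuclear and 0 of 13 mitochondrial members were called upward, against 2.3% of 12366 genes, and 0 downward, against 1.25%. They were Atp5j (difference 0.343 ± 0.248, adjusted p = 0.0131), Cox8a (0.338 ± 0.272, adjusted p = 0.0153) and Cox5b (0.294 ± 0.159, adjusted p = 0.0425), each positive in 4 of 4 mice, though Cox8a was at 0.001 in 2A. Without mouse 1B 0 members were called by limma (13 at unadjusted p under 0.05), and without 1A 1 was. At unadjusted p under 0.05 stood 4 mitochondrial members in the fit with all mice. For innate minus progenitor, 0 nuclear members were called upward, against 1.3% of 12389 genes, and 2 downward, against 1.49%: Cox4i2 (-0.302, -0.450, -0.255 and -0.376, mean -0.348 ± 0.086, adjusted p = 0.0347) and Ndufs8 (-0.170, -0.389, -0.371 and -0.394, mean -0.334 ± 0.108, adjusted p = 0.0472). Both were negative in 4 of 4 mice, and both calls were lost without mouse 1A, without 1B and without 2B. Cox4i2 was detected in 51.6% of cells, with log2 values from -0.23 to 7.15 (median 1.10). Of the 13 mitochondrial members, 0 were called in this difference, and 0 had an unadjusted p under 0.05.

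The wider energy pathways were read from the same fits. With the cycling score, where 5.18% of all genes were called upward, 3 of 20 glycolytic genes were called upward: Pkm, which encodes pyruvate kinase (rho 0.316 ± 0.186, adjusted p = 0.000119), Ldha, lactate dehydrogenase (0.287 ± 0.121, adjusted p = 0.000806), and Gapdh (0.232 ± 0.122, adjusted p = 0.015). Of 16 carrier and electron-transfer genes, 2 were called upward: Cycs, which encodes the cytochrome c that links complexes III and IV (0.250 ± 0.128, adjusted p = 0.0065), and the ADP/ATP carrier gene Slc25a5 (0.217 ± 0.160, adjusted p = 0.0287). Of 21 genes of mitochondrial DNA maintenance and regulation, Gabpb1, a partner of the ETS factor GABPA, was called (0.214 ± 0.047, adjusted p = 0.0321). By limma, 0 of 38 further assembly factors (6 at unadjusted p under 0.05) and 0 of 18 citric acid cycle genes (2) were called with this score.

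With the progenitor score, 3.1% of all genes were called upward and 0.87% downward. Upward calls were 2 of 21 genes of maintenance and regulation, 1 of 18 of the citric acid cycle and 2 of 20 of glycolysis, with 1 glycolytic gene downward, and by limma 0 of 16 carriers (1 at unadjusted p under 0.05) and 0 of 38 assembly factors (3) were called. The called genes were Pprc1 (0.263 ± 0.170, adjusted p = 0.0122) and Myc (0.262 ± 0.178, adjusted p = 0.0129), both regulators of mitochondrial gene programmes, the citric acid cycle gene Idh2 (0.290 ± 0.179, adjusted p = 0.00488), and, in glycolysis, Pfkl (0.274 ± 0.108, adjusted p = 0.00788) and Slc16a1 (0.225 ± 0.191, adjusted p = 0.0422) upward and Pfkp (-0.265 ± 0.107, adjusted p = 0.0106) downward. Pfkl and Pfkp encode forms of phosphofructokinase and moved in opposite directions. With the innate score, limma called 0 genes of these lists, against 0.661% of all genes upward and 0.0886% downward; at unadjusted p under 0.05 stood 4 glycolytic genes, 3 assembly factors, 2 genes of maintenance and regulation, 1 carrier and 0 citric acid cycle genes.

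In the difference between S phase and G2/M, 2.98% of all genes were called toward S phase and 1.99% toward G2/M. Toward S phase, 5 of 20 glycolytic genes were called, with Ldha (0.421 ± 0.165, adjusted p = 0.00012) and Pgam1 (0.418 ± 0.240, adjusted p = 0.000141) at the top, and 20 of 20 had a positive difference, with a median of 0.214 against 0.019 over all genes. Of the 16 carriers, 5 were called, among them Vdac1, the outer-membrane channel (0.391 ± 0.115, adjusted p = 0.00058), and Etfb, an electron-transfer flavoprotein subunit (0.377 ± 0.056, adjusted p = 0.00117), with a median of 0.177. The other energy lists had medians nearer that of all genes. Of the 18 citric acid cycle genes, Idh2 (0.374 ± 0.140, adjusted p = 0.00135) and Suclg2 (0.348 ± 0.133, adjusted p = 0.00418) were called toward S phase, with a median of 0.062. Of the 21 genes of maintenance and regulation, Myc was called toward S phase (0.401 ± 0.033, adjusted p = 0.000358) and Tfb2m, a mitochondrial transcription factor, toward G2/M (-0.285 ± 0.143, adjusted p = 0.0369), with a median of -0.023. By limma, 0 of the 38 assembly factors were called (4 at unadjusted p under 0.05), with a median of 0.005. The medians of the nuclear members (0.029) and the mitochondrial members (-0.048) lay near that of all genes. Whether the lists differ from the members was not tested.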

How the data were processed

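Single cells were sorted into plates and made into oligo-dT-primed, PCR-amplified Nextera libraries, per the labels' protocols. The authors deposited 1 matrix of normalized, batch-corrected expression on a log2 scale (-4.13 to 15.99) for 61 to 69 cells from each labelled mouse, and 39 further labelled cells were not analysed here. Per the submitters' processing notes, Salmon was used with GRCm38; how the values were normalized, corrected and filtered is not stated in the sources used here. The deposited log2 values showed no scaling by gene length: the lowest values of 11001 genes had a Spearman correlation of -0.067 with transcript length.

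IDs were matched to GENCODE vM21 symbols (13578 of 13737 features, 154 IDs without one and 5 rows that carry no mouse gene ID). Cells that share exact values formed 4 correction sets. A gene's repeated lowest value in a set was read as no reads, and a value differing from it by over 1e-06 as detected. Scores are means of set-scaled log2 values. Partial Spearman correlations per mouse, with their Fisher z values tested in limma 3.58.1 (R 4.3.3, intercept only, two-sided), covered every gene detected in at least 10% of cells, with genes of the score's own list left out. In simulated data for the cycling score (12386 genes), the test called 57 of 100 genes with a slope of 0.2 gene SD (median rho 0.262), 91 of 100 with 0.4, and 6 of 12186 unchanged genes. The simulation permuted each gene on its own inside mouse and set and gave all mice the same slope. It thus held no correlation between genes and no tie of genes to depth, and its rates need not hold for the real data. Slopes are log2 changes per SD of the score. The members and gene lists were chosen with earlier results of these data known. Named were the called members, the mitochondrial members, the highest and lowest uncalled members, isoform sets and called genes of the other lists. Member pairs and other examples were named after their values were seen. Alternatives changed covariates, correlation, filter, cells, unit and mice. Read depth is unknown.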

Additional observations from a re-analysis of the deposited data

Results flagged for a closer look

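Of the values checked over the 4 mice, 5 held 1 mouse apart from the rest, where chance alone flags about 1 in 20, or 5.05 of the values checked. The mean log2 level of Cox4i2 was 2.38 in mouse 2B against 2.04 to 2.09 in the others. The correlation of complex III subunits with the mitochondrial average was 0.477 in 2A against 0.398 to 0.407. The nuclear average followed the S phase list at 0.0832 in 2A against 0.329 to 0.344 in the others. It followed the other-type lists at 0.122 in 1B against -0.302 to -0.265. The progenitor and innate scores correlated at 0.195 in 2B against -0.395 to -0.313. No cell of 2B had an innate score above 0.842.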

How the results depend on the processing

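The count of called members depended most on the adjustment for detected genes. Without it, the calls were 35 for the progenitor score (0 with it), 39 for the cycling score (9), 0 for cycling minus progenitor (3) and 21 for innate minus progenitor (2), while the genes called upward in the whole table went from 385 (78.1% of calls) to 4024 (91.9%) with the progenitor score and from 642 (87.6%) to 3897 (91.3%) with the cycling score. Pearson correlation gave 2, 17, 5 and 1 calls in the same order. A filter at 50% detection gave 1 for progenitor, 5 for cycling minus progenitor and 1 for innate minus progenitor. Without the first 8 wells the counts were 1 for progenitor, 14 for cycling and 0 for innate minus progenitor. Other-type lists as covariate gave 1 for progenitor, 5 for cycling minus progenitor and 0 for innate minus progenitor. The other scores as covariates gave 1 for progenitor and 5 for cycling. With sets in place of mice, the counts were 3 for progenitor, 5 for cycling, 1 for innate (Ndufs8) and 4 for innate minus progenitor. Plate in place of set gave 1 for cycling minus progenitor and 0 for innate minus progenitor. The G2M list alone gave 4 for cycling. Leaving out 1 mouse gave 0 to 2 calls for progenitor, 0 to 9 for cycling, 0 to 4 for cycling minus progenitor, 0 to 1 for innate minus progenitor and 0 to 2 for S minus G2/M. Where limma called 0 members, 5 to 18 stood at unadjusted p under 0.05. The cause was not tested. No called member changed sign under any alternative run: Ndufa5 kept its cycling call in 14 of 15, Atp5j, Cox8a and mt-Cytb in 12 of 15, and Uqcr10 in 4 of 15. The correlation of the nuclear with the mitochondrial average was 0.640 without the adjustment for detected genes and 0.509 to 0.541 without 1 mouse; inside plates, a setting added after seeing the data, it was 0.484 (1B on AF1), 0.579 (2A on JW7), 0.456 (2B on JW7) and 0.589 (2B on JW8). With percentages of linear signal in place of the averages, the correlation between both genomes was 0.335 ± 0.194. No paired analysis was possible because the labels hold 1 group. With 4 mice, of which 2 share correction sets, associations near a rho of 0.2 may be missed.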
